A study of Mus musculus with 2 samples.

Results

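Hair keratins and keratin-associated proteins (Krtap genes) were compared between the back skin of transgenic and wild-type mice aged 10 days. The genes were chosen by name: every Krtap gene, the inner root sheath keratins Krt25 to Krt28 and Krt71 to Krt74, the companion layer keratin Krt75, and the hair shaft keratins Krt31 to Krt40 and Krt81 to Krt86. Of the 12393 genes that the array names, 43 met this rule: 4 inner root sheath keratins, Krt75, 12 hair shaft keratins and 26 Krtap genes. The transgenic animals expressed a constitutively active aryl hydrocarbon receptor (AhR), a transcription factor that normally needs a ligand such as dioxin, in their keratinocytes. The controls were non-transgenic littermates. The labels give neither strain, sex nor the number of animals behind an array, and they do not state the promoter, although the transgenic array is titled K14Ahr. Total RNA of whole back skin, with follicles, dermis and whatever muscle came with it, was labelled with biotin and hybridised to 1 array per genotype. Since neither genotype was replicated, no error between animals could be given, no difference could be tested, and every value below compares a single pair of arrays.

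A growing hair is built from concentric layers. Hair shaft keratins pair as acidic type I and basic type II filament proteins in the cortex and cuticle of the shaft, and Krtap proteins, rich in cysteine or in glycine and tyrosine, form the matrix that cross-links these filaments. The inner root sheath, which moulds the shaft, has its own keratins, and the companion layer lies between it and the outer root sheath. In mouse pups of this age the first coat is growing, and these genes are transcribed in the lower and middle part of growing follicles.

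The genes share features of sequence before the start of transcription that the rule did not use. Many of them are neighbouring members of the same families, so their promoters are not independent cases. How much sequence these promoters share was not tested. RefSeq promoters of the assembly GRCm38.p6 were found for 37 of the 43 genes, and the 250 bases before the start were searched on both strands. The TATA box letters TATAAA were present in 27 of 37 promoters (73.0%), against 12.97% of 27025 genes in the same table. Counted on the gene strand only, with the first base 20 to 45 bases before the start, they were present in 17 of 37 (45.9%) against 2.36%. The core of HOX-type sites, TTNAT, was in all 37, against 67.6% of all genes, and the core of LEF1-type sites, CTTTG, in 24 (64.9%) against 48.8%. The core of the AhR response element, GCGTG, was in 3 of 37 (8.11%), those of Krtap14, Krtap19-5 and Krtap19-9b, against 28.2% of all genes. None of the 4 inner root sheath and 7 hair shaft keratin promoters that were found held it in this window. These are matches of letters, not sites, and no match says only that the letters are not in these 250 bases. Every TATAAA match holds a TTNAT match, since both strands were searched, and TTNAT can overlap CTTTG too. The TTNAT share is therefore not separate from the TATAAA share. Base composition of the promoters was not compared.

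Promoters of 4 genes are shown to set the 3 genes with the lowest ratios beside Krt71, the keratin that read slightly above wild type. They lie at chr15:101532821-101533070 (Krt84), chr11:99598107-99598356 (Krtap9-3), chr16:88874270-88874519 (Krtap19-2) and chr15:101743098-101743347 (Krt71), all on the minus strand, and are written from 5′ to 3′ with capitals for the TATA box letters TATAAA, for the LEF1-type core CTTTG and for the AhR core GCGTG, each on either strand.
Krt84: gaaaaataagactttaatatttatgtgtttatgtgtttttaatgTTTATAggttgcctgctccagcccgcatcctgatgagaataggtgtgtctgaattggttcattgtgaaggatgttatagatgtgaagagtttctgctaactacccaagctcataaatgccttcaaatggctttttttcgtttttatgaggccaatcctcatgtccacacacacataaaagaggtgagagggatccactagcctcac
Krtap9-3: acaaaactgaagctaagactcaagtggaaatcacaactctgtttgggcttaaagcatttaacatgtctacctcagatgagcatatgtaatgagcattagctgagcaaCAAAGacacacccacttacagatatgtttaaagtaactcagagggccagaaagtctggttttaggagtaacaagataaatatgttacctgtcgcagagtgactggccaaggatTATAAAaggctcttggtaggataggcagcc
Krtap19-2: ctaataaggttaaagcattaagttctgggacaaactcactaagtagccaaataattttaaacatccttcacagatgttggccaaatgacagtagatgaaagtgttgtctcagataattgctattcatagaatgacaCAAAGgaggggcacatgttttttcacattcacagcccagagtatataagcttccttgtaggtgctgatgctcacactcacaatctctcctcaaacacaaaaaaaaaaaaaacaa
Krt71: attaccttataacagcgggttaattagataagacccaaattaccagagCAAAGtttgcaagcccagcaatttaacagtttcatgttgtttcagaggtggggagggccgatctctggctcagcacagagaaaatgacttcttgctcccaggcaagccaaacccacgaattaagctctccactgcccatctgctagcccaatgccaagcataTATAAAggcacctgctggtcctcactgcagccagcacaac
Krtap9-3 and Krt71 each have TATAAA close to the start, with its first base 30 and 40 bases before it. Krt84 has these letters far upstream and on the other strand, and Krtap19-2 has none. Only the exact letters were searched, so close variants, such as cataaa in Krt84 and tataag in Krtap19-2, were not counted. GCGTG is in none of the 4.

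Signals were lower on the transgenic array for 40 of the 43 genes (93.0%), against 56.2% of the 8887 measured genes. A gene counted as measured where 1 or both arrays exceeded a floor of 34.7. The amounts were small. The median log2 ratio (transgenic signal divided by wild-type signal) was -0.40, or 1.32-fold lower, with an interquartile range of -0.58 to -0.26, while over all measured genes the median was -0.05 and the interquartile range -0.26 to 0.18. At least 1.5-fold lower were 11 of the 43 genes (25.6%), against 6.38% of all measured genes. At least 2-fold lower were 3 genes (6.98%), Krt84, Krtap9-3 and Krtap19-2, against 1.08%. None was 1.5-fold or 2-fold higher, where 6.81% and 2.27% of all measured genes were. Fewer hair-forming cells and less RNA per cell cannot be told apart in whole skin. As a technical measure, single log2 ratios had an SD of 0.26, taken from 1763 genes read by 2 probe sets that both exceeded the floor in both genotypes, so the ratio of a single gene near the median is little beyond the spread between probe sets of a gene. All 43 genes lay above the floor on both arrays, so none of these ratios is a bound.

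**Figure D1:**
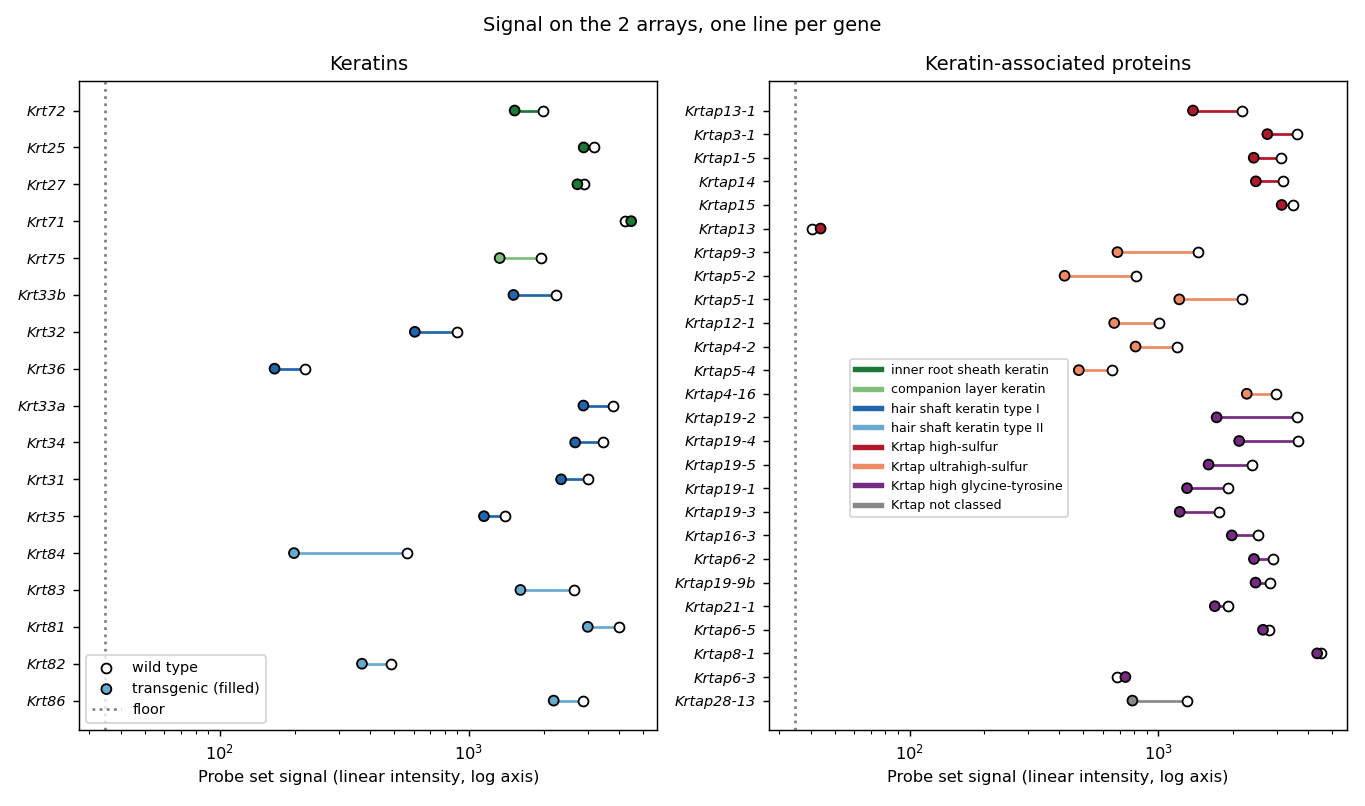
Probe set signal of each of the 43 genes on the wild-type (open circles) and transgenic (filled circles) array, on a log axis, coloured by class, with the floor of 34.7 as a dotted line. The filled circle lies left of the open one for 40 genes, and right of it for Krt71, Krtap13 and Krtap6-3.

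**Figure D2:**
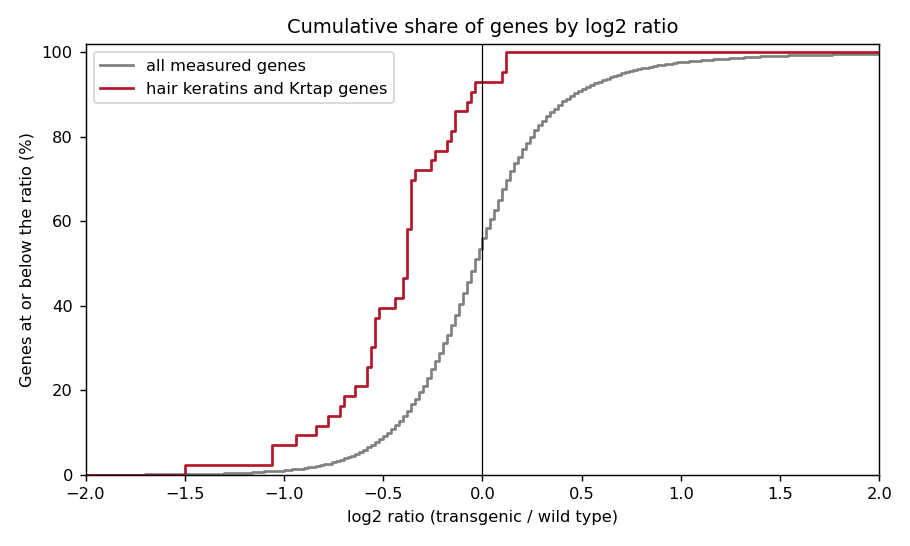
Percentage of genes at or below each log2 ratio (transgenic over wild type) for all 8887 measured genes (grey) and the 43 hair keratin and Krtap genes (red). The red curve lies left of the grey one, with medians of -0.40 and -0.05.

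Inner root sheath keratins had the median closest to 0 of the 3 broad classes, these, the shaft keratins and the Krtap genes. Krt71, the type II keratin whose mutation gives mice a wavy coat, read 4486 in transgenic against 4239 in wild-type skin, a log2 ratio of 0.08. Its type I partners were slightly below 0. Krt25 read 2892 against 3192 (log2 ratio -0.14), and Krt27 read 2728 against 2903 (-0.09). Krt72, a type II keratin of the sheath cuticle, was lowest of the 4 at 1528 against 1986 (-0.38). The median of the 4 was -0.12, and none was 1.5-fold lower, where 6.38% of all measured genes were. Krt71 read close to the top of the scale, where the brightest probe sets of the transgenic and wild-type arrays were at 4995 and 4586, and whether its signal was still proportional to RNA there was not tested. Krt75, the companion layer keratin, read 1330 against 1951, a log2 ratio of -0.55.

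All 12 hair shaft keratins were lower on the transgenic array, against 56.2% of all measured genes. Their median log2 ratio was -0.40 and, apart from Krt84 and Krt83, they had a narrow range from -0.57 to -0.28. Among the type I keratins, those of the cortex had similar ratios. Krt31 read 2347 against 3014 (log2 ratio -0.36), Krt34 2673 against 3459 (-0.37), and Krt33a 2884 against 3797 (-0.40). Krt33b, a close copy of Krt33a, was a little lower in ratio. It read 1511 against 2236 (-0.57). Krt35, a keratin of the hair matrix and cuticle and thus among the first made in a new shaft, had the ratio nearest to 0 of all 12, with 1150 against 1396 (-0.28). Krt32, a cuticle keratin, read 607 against 897 (-0.56), and Krt36 166 against 219 (-0.40). None of the 7 type I keratins was 1.5-fold lower, where 6.38% of all measured genes were.

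Type II shaft keratins held the lowest value of the whole set. Krt84, best known from the filiform papillae of the tongue, read 199 against 565 and was 2.85-fold lower (log2 ratio -1.51). Krt83, a cortex keratin, read 1612 against 2643 and was 1.64-fold lower (-0.71). The other cortex keratins of this type lay near the median of all shaft keratins. Krt81 read 3002 against 4007 (-0.42) and Krt86 2192 against 2873 (-0.39). Krt82, a keratin of the shaft cuticle, read 372 against 489 (-0.39). Krt84 has 1 probe set on this array, so its value has no second reading.

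**Figure D3:**
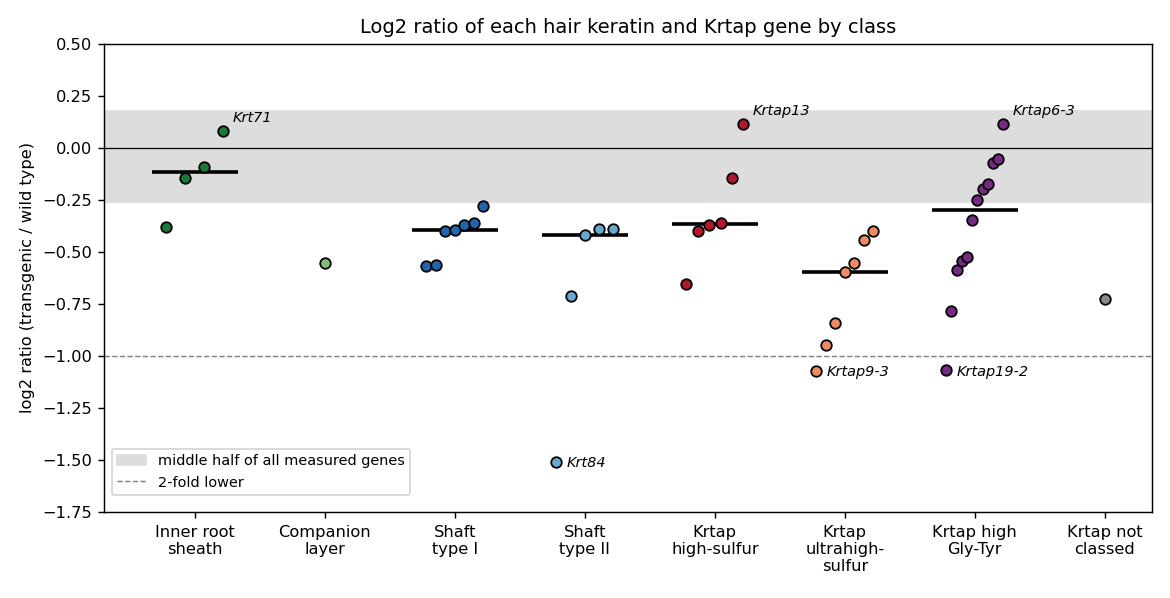
Log2 ratio of each gene by class, with the class median as a bar, the interquartile range of all measured genes (-0.26 to 0.18) as a grey band and a dashed line at 2-fold lower. Of the 4 inner root sheath keratins Krt72 lies below the band and the other 3 in it, all 7 ultrahigh-sulfur Krtap genes lie below the band, and Krt84, Krtap9-3 and Krtap19-2 lie below the dashed line.

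Of the 26 Krtap genes 24 were lower on the transgenic array (92.3%), against 56.2% of all measured genes. At least 1.5-fold lower were 9 (34.6%), against 6.38%, and the median log2 ratio was -0.42. The 7 ultrahigh-sulfur genes, whose cysteine-rich products are typical of the shaft cuticle and cortex, had the lowest median of the 3 Krtap kinds, -0.59, and all were lower, from -1.07 to -0.40. Krtap9-3 read 686 against 1441 and was 2.10-fold lower. Of the Krtap5 genes, Krtap5-2 read 420 against 812 (1.93-fold lower) and Krtap5-4 480 against 652 (1.36-fold lower). Krtap5-1 lay between them, and its 2 probe sets gave log2 ratios of -0.84 and -0.72. Krtap12-1 also has 2 probe sets, which gave -0.59 and -0.87. It was placed in this kind by its subfamily number, a choice made here, and its brighter probe set gives the median of the 7. In the Krtap4 subfamily Krtap4-2 read 811 against 1188 (1.47-fold lower) and Krtap4-16 2270 against 2989 (1.32-fold lower).

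The 6 high-sulfur genes, which encode matrix proteins mainly of the cortex, had a median log2 ratio of -0.37. Krtap13-1 was lowest, at 1380 against 2172 (-0.66). Krtap3-1 (2747 against 3625, -0.40), Krtap1-5 (2422 against 3131, -0.37) and Krtap14 (2470 against 3171, -0.36) lay together in the middle. Krtap15 was close to equality at 3137 against 3470 (-0.15). The highest was Krtap13, at 43.9 against 40.5 (0.12), signals barely above the floor. Krtap28-13, which was given no class here, read 788 against 1303 (-0.73).

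The 12 high glycine-tyrosine genes, whose small products pack between the filaments, spread most widely of the 3 Krtap kinds, from -1.07 to 0.11 with a median of -0.30. Subfamilies differed in where they lay. By the brightest probe set of each, all 6 Krtap19 genes were lower, against 56.2% of all measured genes, with a median of -0.57. Krtap19-2 was lowest, at 1718 against 3605 (2.10-fold lower), followed by Krtap19-4 at 2116 against 3648 (1.72-fold lower), and Krtap19-9b lay nearest to 0 at 2463 against 2823 (-0.20). By contrast the 3 Krtap6 genes had a median of -0.07. Krtap6-2 read 2426 against 2884 (-0.25), and Krtap6-3 738 against 682 (0.11), with its dimmer probe set at 41.5 against 26.2, the latter under the floor, so at least 0.26. Krtap8-1, bright enough to be near the top of the scale, read 4357 against 4521 (-0.05). Krtap16-3 (-0.35 and -0.26 by its 2 probe sets) and Krtap21-1 (1689 against 1907, -0.18) lay between. Among the 5 genes with 2 probe sets, Krtap19-1 was the only one whose probe sets went opposite ways. Its brighter probe set read 1306 against 1906 (-0.55) and its dimmer one 184 against 153 (0.27), so its direction is uncertain.

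Hair keratin and Krtap genes lie in a few tandem clusters, and the gene order of GRCm38.p6 placed 41 of the 43 in 4 of them. Most genes of each cluster read lower on the transgenic array, where 56.2% of all measured genes did. The 14 genes from Krt25 to Krt36, with the type I keratins and the Krtap1, Krtap3, Krtap4 and Krtap9 genes between them, were all lower, with a median of -0.40. In the type II keratin cluster from Krt81 to Krt72, 7 of 8 were lower and the median was also -0.40. The 16 genes from Krtap13-1 to Krtap8-1, which hold the high glycine-tyrosine genes, had a median of -0.30 with 14 lower, and the 3 Krtap5 genes had a median of -0.84. Copies within a cluster can be nearly identical, so neighbouring genes may share hybridised RNA and are uncertain as separate readings. Probe sequences were not used here.

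Brightness went with the ratio to some degree. Over the 43 genes the log2 ratio and the log2 of the mean signal had a Pearson's r of 0.13 and a Spearman's rho of 0.37. Without Krtap13, the 1 gene near the floor, these were 0.39 and 0.47 over 42 genes. The points share the same 2 arrays and the same scale, and many share sequence. The medians did not follow brightness in order. They were -0.42 for the 8 genes with a wild-type signal under 1000, -0.55 for the 10 from 1000 to 2000, -0.39 for the 12 from 2000 to 3000 and -0.37 for the 13 above that. Loss of proportion at the bright end was not tested.

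Other proteins of the shaft and its sheath were lower as well. From a list of 16, chosen like those below with earlier results of these data known, 12 were named on the array. All 12 read lower on the transgenic array, against 56.2% of all measured genes, with a median log2 ratio of -0.60. At least 1.5-fold lower were 6 (50%) and at least 2-fold lower 1 (8.33%), against 6.38% and 1.08%. Msx2, a transcription factor of the hair matrix, is on this list and on that of the regulators below, and without it 11 of 11 were lower, 5 by at least 1.5-fold. Dsc2, a desmosomal cadherin gene that the epidermis also expresses, was 2.49-fold lower (245 against 612) and the only one past 2-fold. Gprc5d, a receptor gene of shaft-forming cells, read 1491 against 2145 (-0.52), and S100a3, a calcium-binding protein of the hair cuticle, 2240 against 2849 (-0.35). Tchh, the gene of the inner root sheath protein trichohyalin, read 834 against 1025 (-0.30), and Padi3, which converts arginines of trichohyalin to citrulline, 1292 against 1790 (-0.47). The list ended with Tgm1, a transglutaminase also of the epidermis (-0.11).

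Among regulators of follicle and shaft differentiation 29 of 34 were measured. Of these 23 were lower (79.3%), 11 by at least 1.5-fold (37.9%) and 1 by 2-fold (3.45%). The shares of all measured genes were 56.2%, 6.38% and 1.08%. Only 1 regulator was at least 1.5-fold higher, where 6.81% of all measured genes were. The median log2 ratio was -0.47. Single regulators went both ways. Hoxc13, a homeodomain factor that binds hair keratin promoters, read 246 against 364 (-0.56), and Foxn1, the factor missing in nude mice, 121 against 181 (-0.58). Lef1, the effector of Wnt signalling in the hair matrix, was below the floor on the transgenic array (17.7 against 45.8, at least 1.32-fold lower). Msx2 (283 against 472, -0.74) and Dlx3 (227 against 402, -0.82) are homeodomain factors of the matrix and shaft. Wnt5a, a Wnt ligand, was 2.33-fold lower (77.5 against 180). Above 0 lay Hr, the hairless gene, a corepressor needed for hair cycling and the highest of the list at 702 against 452 (0.64), Wnt10a (0.36), Sox9 (0.31), Msx1 (0.25), Notch1 (0.18) and Ovol1 (0.01). Near equality were Vdr (-0.01), the Lef1 partner Ctnnb1 (-0.04) and Gata3 (-0.07), a factor of the inner root sheath. Edar, Shh, Wnt10b, Nog and Fgf5 lay below the floor on both arrays.

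Markers of other cells moved with the hair genes or against them. Of all measured genes 56.2% were lower, 1.08% by at least 2-fold, and 2.27% were at least 2-fold higher. Of 9 measured melanocyte genes all 9 were lower, with a median of -0.83 and a summed signal of 1583 against 3034. These pigment cells sit in the hair bulb. Tyr (2.49-fold), Tyrp1 (2.22-fold) and Dct (2.05-fold), genes of melanin synthesis, were lower by more than 2-fold. Sox10, a neural crest factor that is not limited to melanocytes, was at -0.05. Skeletal muscle genes were lower in 8 of 9 (median -0.53, summed signal 4250 against 5142), with Myh8 at least 2.41-fold lower and Acta1 at 0.07. All 3 measured sebaceous gland genes were lower, Scd1 by 2.14-fold and Scd3 by 2.61-fold, with Mgst1 at -0.54. In the other direction all 4 basal keratinocyte genes were higher (median 0.72, summed signal 6720 against 4230), led by Itgb4 (2.02-fold). Of 5 spinous and granular genes 4 were higher (summed signal 8693 against 3679), Krt1 by 6.12-fold and Flg by 4.32-fold, and Ivl was 2.83-fold lower. All 8 macrophage genes were higher (median 1.32, summed signal 2172 against 790), with C1qa highest at 6.01-fold, C1qb, Lyz2, C1qc and Csf1r also past 2-fold, and Adgre1 lowest at a log2 ratio of 0.54. The 6 genes of the outer root sheath and bulge, of which Sox9 and Lhx2 are also on the regulator list, went both ways, from Krt15 (2.69-fold lower) to Krt17 (0.88), with a median of -0.05. The 5 fibroblast genes ran from Col1a1 (-0.54) to Dcn (0.49), with a median of 0.03. The part of any of these shifts in the lower hair keratin signals was not tested.

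**Figure D4:**
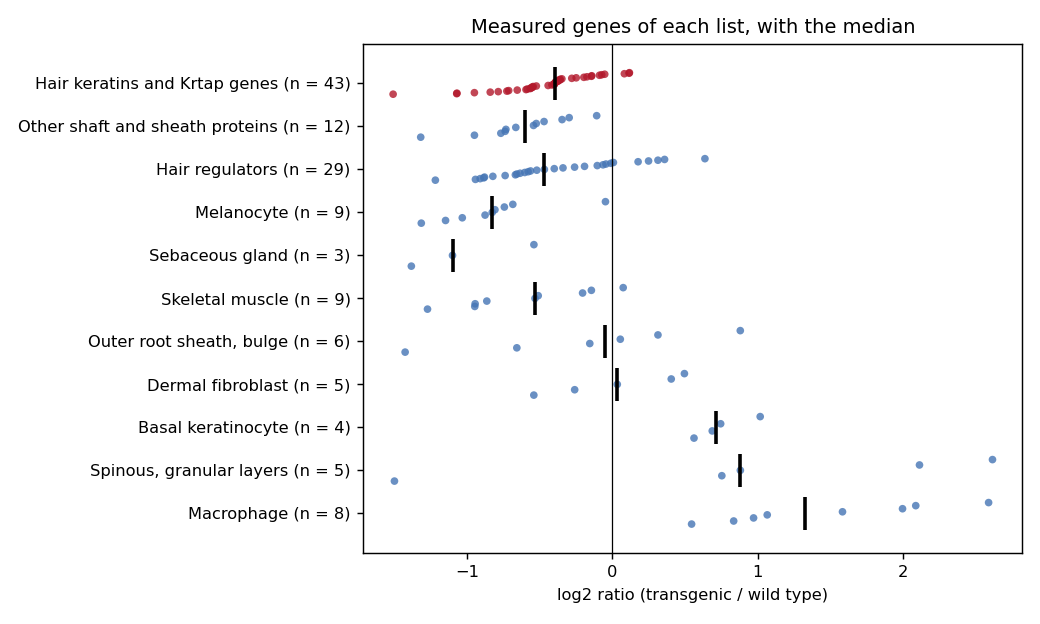
Log2 ratio of every measured gene of each list, with the list median as a black bar. The hair keratin and Krtap genes, the other shaft and sheath proteins, and the regulators have medians of -0.40, -0.60 and -0.47, and melanocyte, sebaceous and muscle lists also lie left of 0, while basal keratinocyte (0.72), spinous and granular (0.88) and macrophage (1.32) medians lie right of it.

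The class medians moved little with the processing. Over the 10 ways of processing, the median of the 43 genes ran from -0.45 with quantile normalization to -0.35 with ratios centred on the median gene. Centring on signal by lowess, which removes a trend of the ratio with brightness over all genes, gave -0.44. With it 12 of the 43 genes were at least 1.5-fold lower, against 4.91% of all measured genes. The inner root sheath keratins stayed nearest to 0 of the 3 classes, from -0.17 to -0.07.

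**Figure D5:**
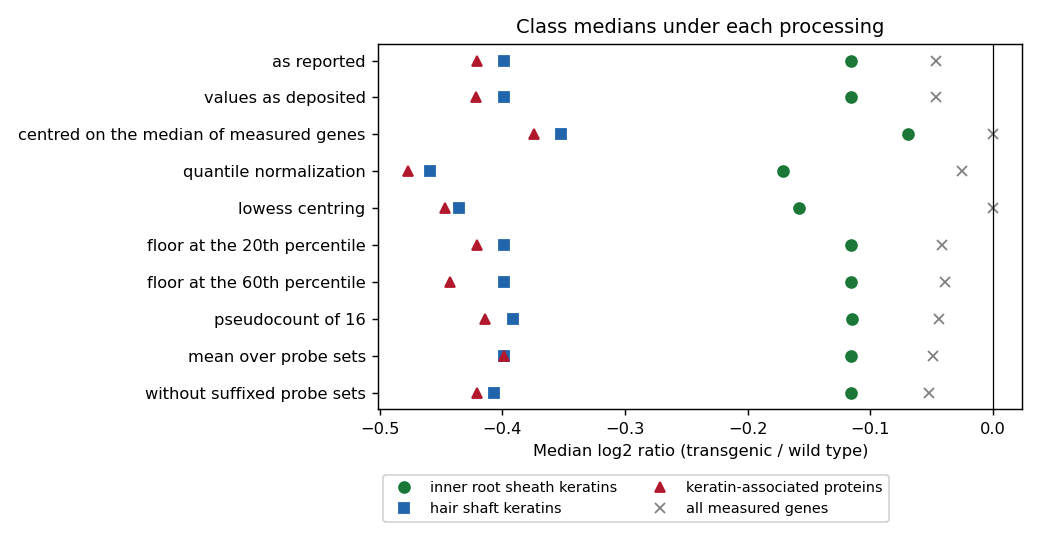
Median log2 ratio of inner root sheath keratins (circles), hair shaft keratins (squares), Krtap genes (triangles) and all measured genes (crosses) under each of the 10 ways of processing. Shaft keratins and Krtap genes lie between -0.48 and -0.35 in every row, and inner root sheath keratins between -0.17 and -0.07.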

How the data were processed

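Back skin RNA of 1 transgenic and 1 wild-type array was analysed. The authors deposited 1 linear intensity for each probe set, already scaled, since the 2% trimmed means were 99.63 and 99.64. No label or file header names the software behind these values. Besides 64 controls, the 22690 probe sets comprised 20380 that the 2016 platform annotation ties to 1 gene, 691 tied to several genes and 1555 tied to no gene. Names were given to the first kind alone, through the gene identifiers of GRCm38.p6, where all 43 genes were found under current symbols. Of 78 protein-coding genes of the rule in that table, 35 had no such probe set and were not analysed here.

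Signals were scaled to equal trimmed means, raised to a floor at the 40th percentile (34.7) and converted to log2 values. This floor lay below 59.8% of transgenic and 60.2% of wild-type signals. A gene was read by the probe set with the highest summed signal. Calls are 1.5-fold and 2-fold differences. Precision is limited by the number of arrays, and no test was possible. The genes named are all keratins of the rule, the highest and lowest of each Krtap subfamily, genes past 2-fold, genes with opposed probe sets, and the ends of other lists; further genes named (Krtap and list members between these) were chosen after their values were seen. The members and lists were chosen with earlier results of these data known. The calculation was tested on simulated data. Python 3.11.15, pandas 2.3.3 and statsmodels 0.14.6 were used.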

Additional observations from a re-analysis of the deposited data

How the results depend on the processing

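The alternatives were the values as deposited, centring on the median gene, quantile normalization, lowess centring (span 0.4), a pseudocount of 16, a lower floor (20th percentile), a higher one (60th percentile), the mean over probe sets and leaving out suffixed probe sets. Under these 9 alternatives the number of genes below 0 was 40, except for 38 of 41 without suffixed probe sets. Krt84, Krtap9-3 and Krtap19-2 were at least 2-fold lower under all of them, and quantile normalization added 1 gene. The number at least 1.5-fold lower ran from 9 (median centring, pseudocount) to 16 (quantile normalization). Under every processing that measured them 9 genes were so. Of all measured genes, 4.91% (lowess centring) to 8.88% (lower floor) were at least 1.5-fold lower. Below 0 were 49.99% (median centring) to 56.9% (mean over probe sets) of them, and at least 2-fold lower 0.71% (higher floor) to 2.34% (lower floor). No hair keratin or Krtap gene was 1.5-fold higher under any processing. Of 384 values of single genes 1 moved by more than the probe set SD of 0.26, Krtap19-1 at -0.14 with the mean over probe sets, and the cause is its dimmer probe set at 0.27. With the floor at the 60th percentile 42 genes were measured, without Krtap13. No paired analysis was possible because each group has 1 array and no test was made.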

Other observations

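A further 4 probe sets list several genes of which at least 1 is a Krtap gene, and they were kept out of the counts because they cannot be given to 1 gene. They read 407 against 771, 1807 against 2880, 1382 against 1948, and 2541 against 2482 on the transgenic and wild-type arrays. The log2 ratios were -0.92, -0.67, -0.50 and 0.03. Lower on the transgenic array were 3 of the 4, against 56.2% of all measured genes.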
